A study of Mus musculus with 6 samples.

Results

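A set of 10 genes was examined whose products make up, store, release and receive transforming growth factor beta (TGF-β) in regulatory T (Treg) cells differentiated with or without sorafenib (Sora). They were named by their place in the pathway, a rule that uses no measured value, although earlier results of these data were known. They are the ligands Tgfb1, Tgfb2 and Tgfb3, the receptors Tgfbr1, Tgfbr2 and Tgfbr3, the docking protein gene Lrrc32, the latent TGF-β binding protein genes Ltbp3 and Ltbp4, and the protease gene Furin. All 10 were among the 22939 genes of the count table, and 9 passed the filter on low counts that left 13463 genes for testing. Tgfb2 did not pass it.

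In the study, naive CD4+ T cells from spleen and lymph nodes of Foxp3-GFP knock-in mice on the C57BL/6J background were cultured into Treg cells. The culture held anti-CD3 and anti-CD28 antibodies, TGF-β1, and antibodies that block IFN-γ and IL4, and GFP-positive cells were sorted for bulk RNA-seq. Sora is an oral inhibitor of several kinases that is given for liver cancer. Libraries were labelled control (ctrl-Treg cells, 3 libraries) or sorafenib (Sora-Treg cells, 3 libraries), and no dose, culture time, animal or batch is given for them in the labels. TGF-β1 protein was added to both groups, so every value was measured in cells that had received the ligand. The reporter gate keeps cells that transcribe Foxp3, and it does not by itself remove other cells that carry through a sort.

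TGF-β is made as a precursor that furin cuts into a mature cytokine and a latency-associated peptide, which stay bound to each other so that the cytokine is held inactive. The latent complex is held on the Treg cell surface by GARP, the product of Lrrc32, or in the extracellular matrix by latent TGF-β binding proteins, and integrins can pull the cytokine free. Free TGF-β binds the type II receptor TGFBR2, which activates the type I receptor TGFBR1, and SMAD proteins carry the signal to the nucleus. In T cells this signal induces Foxp3 and restrains effector functions.

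Total counts ranged from 30727686 to 37717324 per library, and 3 counts corresponded to between 0.0795 and 0.0976 CPM (counts scaled to a common library size). The labelled cell type was checked by marker genes. Foxp3 was between 252 and 269 CPM in ctrl-Treg cells and between 268 and 278 CPM in Sora-Treg cells, and the groups overlapped. Summed over 9 Treg cell markers, the level was 3725 to 3776 CPM in ctrl-Treg cells and 6729 to 6816 CPM in Sora-Treg cells. Il2ra alone went from between 1911 and 1971 CPM to between 3737 and 3844 CPM. Of the 9 markers, 8 passed as higher at an adjusted p of 0.05 by edgeR, where 29.7% of all genes tested did. All 8 general T cell markers were higher too, with sums of 2427 to 2437 CPM against 3431 to 3538 CPM. How the calls of markers with small differences, such as Foxp3 and Cd4, depend on the scaling was not examined. Summed over 8 myeloid markers, control libraries 1 and 2 stood apart at 106 CPM each, against 27.3 CPM in control library 3 and 23.0 to 46.5 CPM in the Sora-Treg libraries. Dendritic cell markers summed to 15.3 to 17.2 CPM in ctrl-Treg and 4.28 to 4.86 CPM in Sora-Treg libraries. For B cell markers the sums were 9.71 to 10.7 and 6.09 to 7.68 CPM. NK cell markers were higher, at 2.16 to 2.36 and 4.15 to 5.21 CPM, and CD8 T cell markers overlapped, at 13.2 to 15.1 and 12.6 to 13.8 CPM. In bulk RNA, more cells of a type and more RNA per cell cannot be told apart.

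Sequences that bear on the members were read first. Shown here is the part of the Tgfb1 coding sequence (GENCODE transcript Tgfb1-201 on GRCm38, 390 codons) that carries the release and cleavage sites of the precursor. Capitals mark the integrin-binding triplet (codons 244 to 246) in the first line and the furin-type cleavage site (codons 275 to 278) in the second, after which the remaining 112 codons encode the mature cytokine and the stop codon is not counted.
Tgfb1 integrin-binding site: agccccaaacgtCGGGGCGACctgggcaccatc
Tgfb1 furin cleavage site: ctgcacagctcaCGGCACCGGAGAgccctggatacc

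The RefSeq promoter table (GRCm38.p6, from 250 bases before to 50 after a gene's start) held windows for 7 of the 10 members, and Tgfb3, Tgfbr3 and Lrrc32 had none. The 3 windows shown belong to the most abundant ligand, to the tested member with the largest change among those that had a window, and to the 1 that passed as lower among the 9 members tested. Capitals mark every match, on either strand, to a SMAD half-site (CAGAC), an AP-1 site (TGACTCA), a forkhead site of the Foxo type (GTAAACA) or a GC box (GGGCGG).
Tgfb1, chr7:25686752-25687051, + strand: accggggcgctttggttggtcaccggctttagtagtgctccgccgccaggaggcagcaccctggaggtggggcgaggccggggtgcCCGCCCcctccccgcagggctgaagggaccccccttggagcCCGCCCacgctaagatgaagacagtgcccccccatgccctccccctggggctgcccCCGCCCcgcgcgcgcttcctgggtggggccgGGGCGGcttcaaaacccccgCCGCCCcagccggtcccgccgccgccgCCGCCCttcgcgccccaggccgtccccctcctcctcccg
Ltbp3, chr19:5740650-5740949, + strand: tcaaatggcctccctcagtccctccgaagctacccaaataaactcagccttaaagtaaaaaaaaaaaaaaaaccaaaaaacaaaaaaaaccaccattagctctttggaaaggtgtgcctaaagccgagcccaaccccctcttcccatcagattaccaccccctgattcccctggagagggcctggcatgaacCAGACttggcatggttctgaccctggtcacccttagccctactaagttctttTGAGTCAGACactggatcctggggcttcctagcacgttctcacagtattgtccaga
Tgfbr2, chr9:116175314-116175613, - strand: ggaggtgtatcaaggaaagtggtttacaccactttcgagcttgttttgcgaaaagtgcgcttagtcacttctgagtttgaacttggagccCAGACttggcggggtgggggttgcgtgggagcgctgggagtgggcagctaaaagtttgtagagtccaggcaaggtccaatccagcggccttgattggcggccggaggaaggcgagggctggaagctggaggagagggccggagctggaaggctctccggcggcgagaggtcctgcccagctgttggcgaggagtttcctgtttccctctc

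The Tgfb1 window held 6 GC boxes and none of the other motifs, and 77.0% of its bases were G or C against a median of 52.7% over 32851 promoter windows of that length. The Ltbp3 window held 2 SMAD half-sites and 1 AP-1 site, and the AP-1 match shared bases with a SMAD half-site. The Tgfbr2 window held 1 SMAD half-site. Among all 32851 windows, 49.6% held a SMAD half-site, 5.2% an AP-1 site, 3.65% a forkhead site and 35.7% a GC box. Among the 11 windows of the 7 members, the forkhead letters occurred in 1, a window of Furin. These matches are letters in a window and were not measured as binding.

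Across the members, 6 of the 9 tested were higher in Sora-Treg cells, 1 was lower and 2 did not pass the test, at an adjusted p of 0.05 (edgeR quasi-likelihood test, Benjamini-Hochberg adjustment over all genes tested). So many genes differed between the groups that this count needs its background. Over all genes tested, 59.6% passed in either direction, 29.7% as higher and 29.9% as lower. The groups did not overlap for 7 of the 9 members and for 63.7% of all genes tested. With a log2 fold change beyond 1 also required, Tgfb3 and Ltbp3 were called, both as higher, where 11.3% of all genes tested were called in either direction and 6.3% as higher. The median log2 fold change of the 9 members was 0.39, and that of all genes tested was -0.0035.

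**Figure D1:**
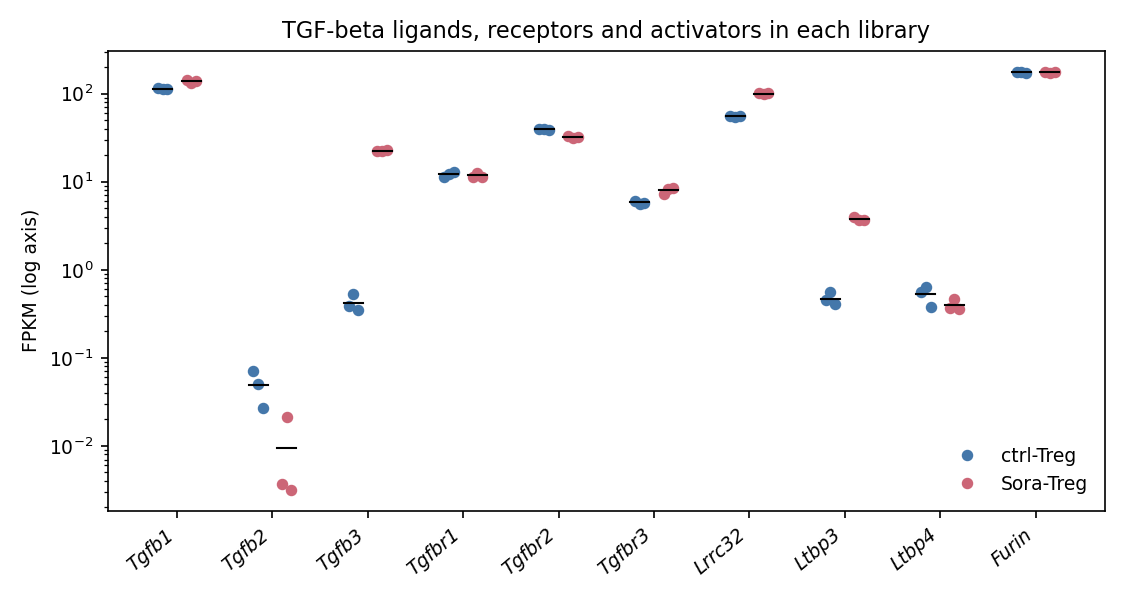
FPKM of the 10 members in each library on a log axis, with ctrl-Treg libraries in blue, Sora-Treg libraries in red and black lines at the group means. Tgfb3 lay at a mean of 0.423 FPKM in ctrl-Treg cells and 22.5 FPKM in Sora-Treg cells, while Furin was near 175 FPKM in both groups.

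Tgfb3 was the member that differed most. It encodes the third TGF-β isoform, best known for its part in palate and lung development and also made by some T helper cells. Its counts were 50, 63 and 36 in ctrl-Treg libraries and 2399, 2481 and 2881 in Sora-Treg libraries. Scaled for depth, these were 1.27, 1.73 and 1.13 CPM against 79.1, 77.8 and 80.9 CPM. The lowest Sora-Treg library lay far above the highest ctrl-Treg library, and the Sora-Treg libraries were close to each other. The log2 fold change was 5.84 ± 0.09 (SE, n = 3 against 3; adjusted p = 1.05e-23 by edgeR), a 57.2-fold difference and the 8th largest increase among the 13463 genes tested. Per length, Tgfb3 moved from the 15.6th percentile of the genes tested to the 80.5th. Platelets, fibroblasts and endothelial cells are other sources of Tgfb3 or Tgfb1. Of 9 platelet and megakaryocyte markers in the table, 6 never exceeded 10 counts, and the summed level of the 9 was 8.27 to 9.11 CPM in ctrl-Treg and 6.56 to 8.73 CPM in Sora-Treg libraries. The 6 fibroblast markers summed to 2.10 to 4.24 and 1.48 to 2.64 CPM. The 5 endothelial markers went from between 10.03 and 12.7 CPM to between 38.1 and 40.7 CPM in sum, nearly all of it Pecam1, which leukocytes also express. The other 4, Cdh5, Kdr, Tek and Tie1, never exceeded 10 counts. The part of such cells in the Tgfb3 difference was not tested.

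Tgfb1 encodes the main TGF-β isoform of the immune system. Its level was 241, 241 and 238 CPM in ctrl-Treg cells and 324, 304 and 316 CPM in Sora-Treg cells. Every Sora-Treg library was above every ctrl-Treg library. The mean rose from 240 ± 2.06 to 315 ± 9.99 CPM (SD, n = 3 each), a log2 fold change of 0.39 ± 0.03 (SE; adjusted p = 8.73e-11 by edgeR) or 1.31-fold. Among all genes tested, 38.2% had a larger change in either direction, so the Tgfb1 difference was well resolved from the replicate spread and of ordinary size. At 114 FPKM in ctrl-Treg cells, Tgfb1 was already at the 96.8th percentile of the genes tested.

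Tgfb2, the ligand with known roles in eye, heart and ear development, was barely detected. Its counts were 23, 15 and 7 in ctrl-Treg libraries and 1, 6 and 1 in Sora-Treg libraries, sums of 45 and 8. The groups did not overlap, although control library 3 and Sora library 2 differed by 1 count. With no filter beyond a count of 1 in any library, the log2 fold change was -2.28 (adjusted p = 0.0046 by edgeR), whereas limma on log2(FPKM + 1) with no filter did not pass (adjusted p = 0.0618). The size of the Tgfb2 difference rested on few counts. In the fits with 1 library left out that tested Tgfb2, its log2 fold change ranged from -1.84 without Sora library 3 to -3.61 without Sora library 2. Without control library 1 or control library 2, which held the most Tgfb2 counts, the gene did not pass the filter. Tgfb2 was highest in control libraries 1 and 2, where the myeloid markers were also highest, and the part of those cells in the difference was not tested.

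Levels of different genes were compared per length, in FPKM. The 3 ligands summed to 114 ± 1.17 FPKM in ctrl-Treg cells and 160 ± 4.84 FPKM in Sora-Treg cells. Tgfb3 supplied 0.341%, 0.463% and 0.307% of that sum in the ctrl-Treg libraries. In the Sora-Treg libraries it supplied 13.7%, 14.2% and 14.3%. The difference of 13.7 percentage points had an exact two-sided permutation p of 0.1, the smallest that 3 against 3 libraries allow. The FPKM ratio of Tgfb1 to Tgfb3 was between 214.8 and 325 in ctrl-Treg libraries and between 6.02 and 6.32 in Sora-Treg libraries. Tgfb1 remained the most abundant ligand transcript in every library.

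**Figure D2:**
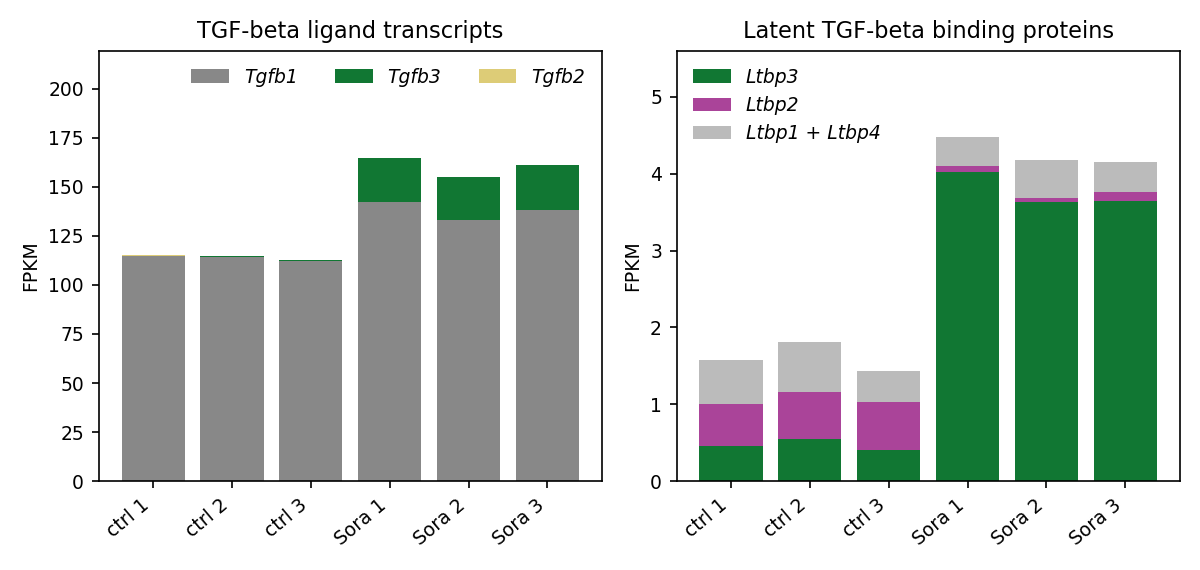
Stacked FPKM per library of the TGF-β ligands (left; Tgfb2 is too low to see) and of the latent TGF-β binding proteins (right); both axes start at 0. Tgfb3 is a visible band in the Sora-Treg libraries and a thin line in the ctrl-Treg libraries, and in the Sora-Treg libraries Ltbp3 makes up most of the binding protein transcripts.

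The shapes of the 2 ligand patterns were compared with those of all other genes tested, as the root mean square difference over the 6 libraries of log2(CPM + 0.5) centred on each gene's mean. Tgfb1 had many near neighbours, with 1326 genes within 0.1, and the nearest were Itpr3 (0.0107), Clic1 (0.0152) and Osm (0.0154). Tgfb3 had 0 genes within 0.1. The nearest to Tgfb3 were Gzmb (0.209), which encodes the cytotoxic protease granzyme B, Gm36600 (0.341) and Gipr (0.415), the receptor gene of a gut hormone. Their log2 fold changes were 5.14, 7.57 and 6.37, against 5.84 for Tgfb3. Gm36600 had a mean of 0.0789 CPM in ctrl-Treg cells, below the level of 3 counts in any library. The added 0.5 CPM shrinks differences at such low levels. Reads of Gzmb could be shared with those of other granzymes, so its value is uncertain.

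Among the genes for latent storage, Lrrc32 encodes GARP, which anchors latent TGF-β1 on activated Treg cells. Its level was 222, 218 and 223 CPM in ctrl-Treg cells and 436, 421 and 431 CPM in Sora-Treg cells. The groups were far apart relative to their spread. The mean rose from 221 ± 2.61 to 429 ± 7.67 CPM (SD, n = 3 each), a log2 fold change of 0.96 ± 0.03 (SE; adjusted p = 1.98e-18 by edgeR). The 1.95-fold difference fell just short of the 2-fold limit. The FPKM ratio of Lrrc32 to Tgfb1 was 0.491 ± 0.0094 in the ctrl-Treg libraries against 0.728 ± 0.0103 in the Sora-Treg libraries, with no overlap (exact permutation p = 0.1). Nrros, which encodes the related docking protein of myeloid cells and microglia, moved the other way, from 44.3, 49.0 and 48.3 CPM to 37.2, 30.1 and 33.4 CPM (log2 fold change -0.49 ± 0.06; adjusted p = 5.96e-07 by edgeR). The FPKM ratio of Lrrc32 to Nrros was 7.30 ± 0.443 in ctrl-Treg libraries and 20.04 ± 1.77 in Sora-Treg libraries.

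Ltbp3 encodes a binding protein that helps secrete latent TGF-β and ties it to the matrix. Its counts were 94, 107 and 69 in ctrl-Treg and 699, 667 and 746 in Sora-Treg libraries, or 2.39, 2.94 and 2.16 CPM against 23.0, 20.92 and 20.96 CPM. All Sora-Treg libraries were well above all ctrl-Treg libraries. The log2 fold change was 3.11 ± 0.11 (SE; adjusted p = 1.13e-16 by edgeR), an 8.63-fold difference. Per length, Ltbp3 was a transcript of modest abundance, at 3.77 ± 0.217 FPKM in Sora-Treg cells.

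Ltbp4, the binding protein gene known for elastic fibres and lung, was not shown to differ. Its level was 3.30, 3.82 and 2.22 CPM in ctrl-Treg cells and 2.34, 3.01 and 2.33 CPM in Sora-Treg cells. The groups overlapped, since control library 3 was the lowest of all. The log2 fold change was -0.29 ± 0.21 (SE; adjusted p = 0.253 by edgeR). Without control libraries 1 and 2, which carried the most myeloid transcripts, it was 0.20, with control library 3 as the only control. The part of those transcripts in the value was not tested.

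Ltbp2, which is not a member and encodes a relative that does not bind latent TGF-β, had 4.65, 5.17 and 5.26 CPM in ctrl-Treg cells and 0.791, 0.471 and 1.07 CPM in Sora-Treg cells (log2 fold change -2.67 ± 0.23; adjusted p = 1.14e-09 by edgeR). The sum of the 4 binding protein genes was 1.61 ± 0.196 FPKM in ctrl-Treg libraries and 4.27 ± 0.1804 FPKM in Sora-Treg libraries. Within that sum, the share of Ltbp3 went from 29.2 ± 1.07% to 88.1 ± 1.40%, and that of Ltbp2 from 37.2 ± 5.33% to 1.98 ± 0.786%.

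Furin encodes the protease that makes the cut marked in the sequence above, and loss of furin in T cells is known to impair Treg cell function. It was the most abundant member. Its level was 890, 895 and 875 CPM in ctrl-Treg cells and 970, 938 and 978 CPM in Sora-Treg cells. The groups did not overlap, but the difference was small, with a log2 fold change of 0.12 ± 0.02 (SE; adjusted p = 2.29e-04 by edgeR). It depended on the scaling. With library totals alone the log2 fold change of Furin was 0.0029 (adjusted p = 0.926), and the median of all genes tested then shifted to -0.12. Per length, Furin was at 175 ± 2.13 and 175 ± 3.99 FPKM.

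Among the 9 members tested, the type II receptor gene Tgfbr2 was the 1 that passed as lower. Its level was 183, 182 and 180 CPM in ctrl-Treg cells and 162, 158 and 163 CPM in Sora-Treg cells. Every Sora-Treg library was below every ctrl-Treg library, and replicates differed little. The mean went from 182 ± 1.83 to 161 ± 2.59 CPM (SD, n = 3 each). The log2 fold change was -0.17 ± 0.03 (SE; adjusted p = 3.82e-05 by edgeR), which is a drop of 11.4%. Among all genes tested, 65.3% had a larger change.

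Tgfbr1, the kinase that phosphorylates SMAD2 and SMAD3, had 70.0, 74.9 and 80.4 CPM in ctrl-Treg cells and 76.4, 84.6 and 76.1 CPM in Sora-Treg cells. The groups overlapped. The log2 fold change was 0.07 ± 0.05 (SE; adjusted p = 0.206 by edgeR), and its sign turned when library totals or FPKM were used for scaling. The FPKM ratio of Tgfbr2 to Tgfbr1 was 3.51, 3.26 and 2.996 in ctrl-Treg libraries and 2.85, 2.50 and 2.87 in Sora-Treg libraries. These ranges lay close together without overlap, and the exact permutation p was 0.1, again the smallest possible. The level of the ratio depends on the length used for each gene.

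Tgfbr3 encodes betaglycan, a co-receptor with no kinase that presents TGF-β, TGF-β2 above all, to TGFBR2 and also binds inhibin. Its level was 35.6, 32.9 and 33.8 CPM in ctrl-Treg cells and 46.0, 51.8 and 53.4 CPM in Sora-Treg cells. The groups did not overlap, and the Sora-Treg libraries were the more spread. The log2 fold change was 0.56 ± 0.06 (SE; adjusted p = 1.19e-08 by edgeR), a 1.48-fold difference.

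**Figure D3:**
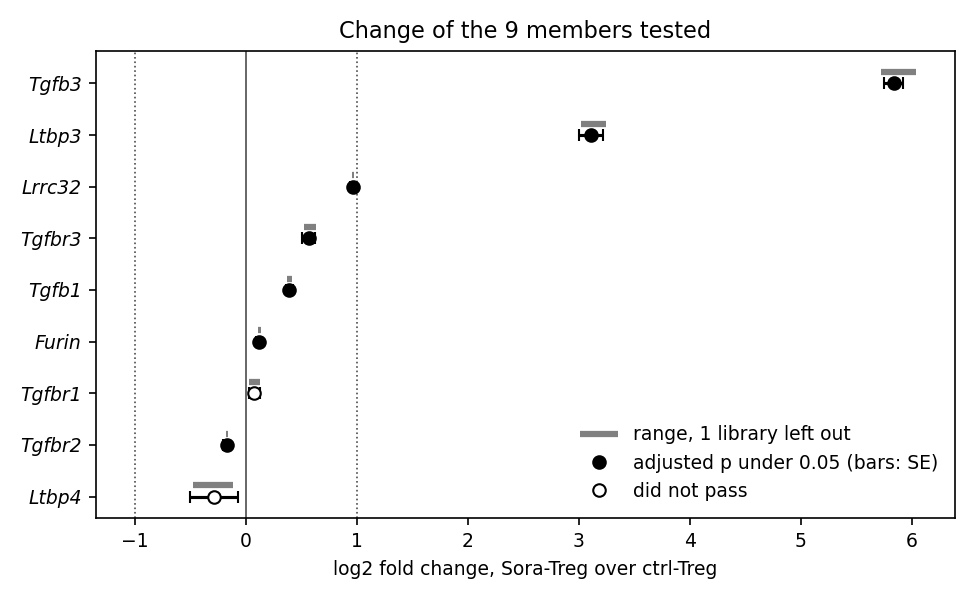
Log2 fold change of the 9 members tested, with SE bars, filled points for an adjusted p under 0.05, grey bars for the range of estimates when 1 library was left out, and dotted lines at the 2-fold limit. Tgfb3 (5.84) and Ltbp3 (3.11) lay beyond the limit, and Lrrc32 (0.96) just inside it.

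By level in ctrl-Treg cells, the members ranked per length as Furin (175 FPKM), Tgfb1 (114), Lrrc32 (55.8), Tgfbr2 (39.5), Tgfbr1 (12.2), Tgfbr3 (5.83), Ltbp4 (0.526), Ltbp3 (0.471), Tgfb3 (0.423) and Tgfb2 (0.0495). Ltbp4, Ltbp3 and Tgfb3 were not separated by their spread. In Sora-Treg cells Tgfb3 stood next below Tgfbr2 in that order, at 22.5 ± 0.451 FPKM, above both Tgfbr1 and Tgfbr3. The order rests on the length behind each FPKM. For Tgfbr2 that length was 4788 bases, against 8092 for the longest GENCODE transcript, and for Tgfb3 3385 against 3383. A longer length lowers an FPKM, so which of Tgfb3 and Tgfbr2 stood higher in Sora-Treg cells is uncertain.

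Other genes that store, process or release TGF-β were read from a list of 25, of which 16 were tested, and 8 of these were higher and 5 lower in Sora-Treg cells. These 13, or 81.25% of the 16, stand beside the 59.6% of all genes that passed. With limma on FPKM the 13 became 4, or 7 with no filter. The filter of those fits left some genes of the list untested, Ltbp2, Bmp1 and Mmp14 among them. The median log2 fold change of the list was 0.13. Genes of integrin chains were among the higher ones. Itgb3 rose from 18.9 ± 0.679 to 58.1 ± 1.42 CPM (log2 fold change 1.62 ± 0.05; adjusted p = 2.38e-17 by edgeR) and Itgb5 from 3.14 ± 0.201 to 8.06 ± 0.900 CPM (1.35 ± 0.14; adjusted p = 1.38e-08 by edgeR). Both encode partners of the αv chain. Itgb8, whose product forms the αvβ8 integrin by which Treg cells release TGF-β1 from GARP, was low, at 2.01, 2.78 and 1.88 CPM in ctrl-Treg and 2.74, 3.89 and 4.07 CPM in Sora-Treg libraries. The groups overlapped for Itgb8, and the log2 fold change of 0.68 ± 0.21 (adjusted p = 0.0076 by edgeR) no longer passed without Sora library 3 (adjusted p = 0.0508). Itgav, the αv chain itself, was 0.15 ± 0.04 higher on the log2 scale (adjusted p = 0.0021 by edgeR) and 0.03 with library totals alone, where it did not pass. Itgb1 was 0.30 ± 0.03 higher (adjusted p = 1.45e-08 by edgeR).

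Bmp1, a metalloprotease gene whose product can cut binding proteins and free the large latent complex, was lower, at 3.92 ± 0.230 CPM in ctrl-Treg and 0.727 ± 0.216 CPM in Sora-Treg cells (log2 fold change -2.44 ± 0.25; adjusted p = 1.31e-08 by edgeR). Mmp14, a membrane metalloprotease gene, had 2.90, 3.02 and 1.47 CPM in ctrl-Treg and 3.56, 4.80 and 4.16 CPM in Sora-Treg libraries. Its log2 fold change was 0.75 ± 0.22 (adjusted p = 0.0051 by edgeR). It ranged from 0.50 without control library 3 to 1.503 without control libraries 1 and 2, where control library 3 was the only control. With limma on log2(FPKM + 1) and no filter, Mmp14 did not pass (0.30; adjusted p = 0.122).

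The list of co-receptors and receptor regulators had 18 genes tested, with 7 higher and 4 lower and a median log2 fold change of 0.15. In either direction 61.1% passed, near the 59.6% of all genes tested. Acvrl1 encodes ALK1, a type I receptor that pairs with endoglin, and rose from 59.7 ± 0.221 to 142 ± 4.44 CPM (log2 fold change 1.25 ± 0.04; adjusted p = 4.09e-18 by edgeR). Eng, which encodes endoglin, fell from 11.7 ± 1.13 to 5.15 ± 0.578 CPM (-1.19 ± 0.12; adjusted p = 6.11e-09 by edgeR). The 2 partners thus moved in opposite directions. Nrp1, which encodes a surface protein that can bind latent TGF-β, fell from 96.7 ± 2.91 to 57.2 ± 0.919 CPM (-0.76 ± 0.04; adjusted p = 1.46e-13 by edgeR). Bambi, a decoy receptor gene, rose by 0.88 ± 0.09 and Usp11, a deubiquitinase gene, by 0.52 ± 0.06 (adjusted p = 1.68e-08 and 1.75e-07 by edgeR), while Tgfbrap1 was at -0.21 ± 0.05 (adjusted p = 6.90e-04 by edgeR).

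Among SMAD genes and their co-repressors, 4 of 13 tested were higher and 6 were lower, with a median log2 fold change of -0.07. In either direction 76.9% passed, against 59.6% of all genes tested. Tgif1, a co-repressor gene, fell from 50.8 ± 1.30 to 27.7 ± 1.70 CPM (-0.88 ± 0.05; adjusted p = 2.69e-12 by edgeR), and Smad1, which serves BMP receptors, from 17.8 ± 0.581 to 12.04 ± 1.05 CPM (-0.56 ± 0.08; adjusted p = 4.43e-06 by edgeR). Smad4, the common partner, was at 0.19 and Smad7, the feedback inhibitor, at 0.13 (adjusted p = 1.28e-04 and 0.0033 by edgeR), but neither passed with library totals alone, where they were at 0.07 and 0.01. Among 12 genes of the SMAD-independent branch, 4 were higher and 2 lower. The 6 of 12 that passed in either direction were a smaller share than the 59.6% of all genes tested. All of these changes were small, from 0.29 for Traf4 and 0.17 for Xiap to -0.17 for Map3k7, which encodes the kinase TAK1, and -0.07 for Tab2. Xiap did not pass with library totals alone. Tab2 no longer passed without control library 1 (adjusted p = 0.148 by edgeR), control library 3 (0.1102), Sora library 2 (0.0634) or Sora library 3 (0.1101).

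**Figure D4:**
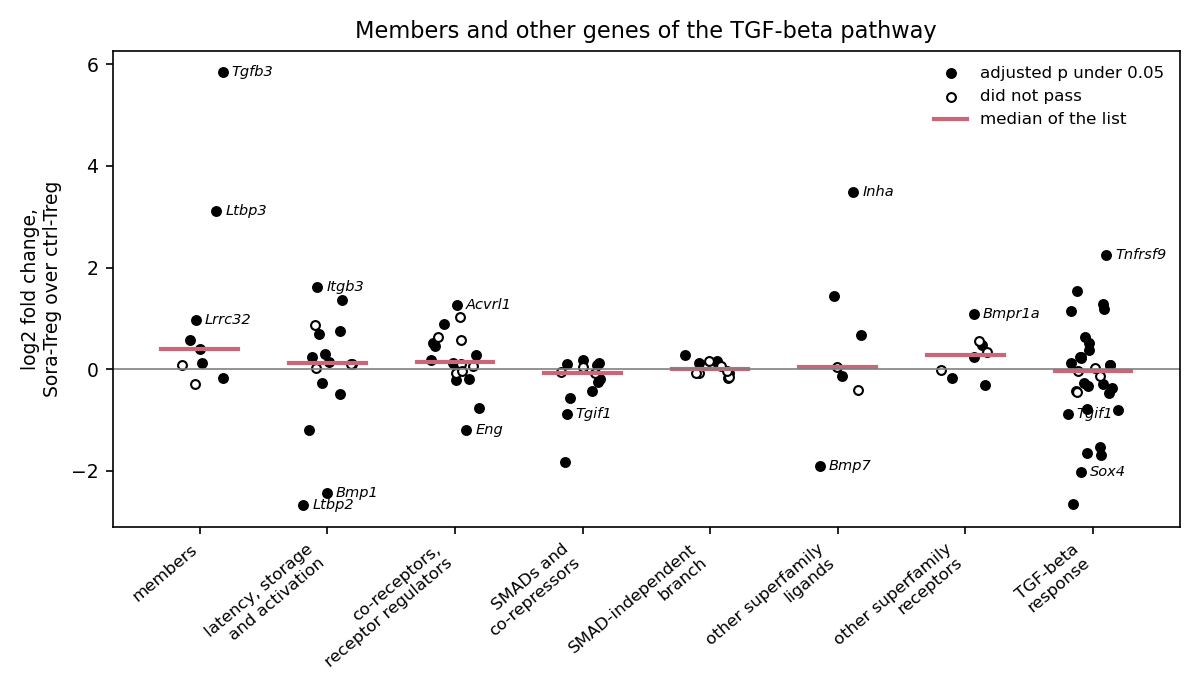
Log2 fold change of the genes tested in the member set and in 7 lists of the pathway, with filled points for an adjusted p under 0.05, open points for genes that did not pass and red lines at the medians of the whole lists. The list medians lay between -0.07 and 0.39, and single genes such as Tgfb3, Inha and Ltbp3 lay far above them.

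Relatives of TGF-β were mostly silent. Of 28 activin, BMP and growth differentiation factor ligands and their soluble antagonists, 21 were in the table, 7 were tested, 3 were higher and 2 lower. Of the 7, 71.4% thus passed in either direction, against 59.6% of all genes tested. Inha, the inhibin alpha subunit gene, rose from 2.84, 2.47 and 3.44 CPM to 32.2, 31.0 and 35.0 CPM (log2 fold change 3.49 ± 0.10; adjusted p = 2.80e-18 by edgeR). Inhba, which encodes the beta subunit of activin A, rose from 10.1 ± 1.203 to 16.3 ± 1.34 CPM (0.68 ± 0.10; adjusted p = 2.03e-06 by edgeR), and Fstl3, an activin antagonist gene, from 2.06 ± 0.373 to 5.61 ± 0.174 CPM (1.44 ± 0.17; adjusted p = 1.67e-07 by edgeR). Bmp7 fell from 10.9 ± 1.41 to 2.90 ± 0.312 CPM (-1.90 ± 0.13; adjusted p = 2.47e-11 by edgeR). Twsg1, a BMP modulator gene, was at -0.14 with overlapping groups (adjusted p = 0.0169 by edgeR), and it no longer passed without control library 2, control library 3 or Sora library 1 (adjusted p from 0.0736 to 0.102). Of 8 related receptor genes tested, 3 were higher and 2 lower, or 62.5% in either direction. Bmpr1a rose from 24.5 ± 2.25 to 52.0 ± 2.66 CPM (1.09 ± 0.06; adjusted p = 6.43e-13 by edgeR), while Acvr2a was at 0.48, Acvr1b at 0.24, Acvr2b at -0.32 and Bmpr2 at -0.18. Acvr2b was at the threshold (adjusted p = 0.0483 by edgeR) and did not pass in 10 of the 15 alternatives that tested it. Acvr1b did not pass in 4 of 17 alternatives, Acvr2a in 2 and Bmpr2 in 1.

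Genes known to respond to TGF-β, in T cells or elsewhere, lay on both sides. No expected direction was set for each gene, so the counts and the median do not measure the TGF-β response. Of 33 tested, 15 were higher and 14 lower, with a median log2 fold change of -0.04. In either direction 87.9% passed, against 59.6% of all genes tested, and the list was chosen with earlier results of these data known. Tnfrsf9, the gene of the costimulatory receptor 4-1BB, rose by 2.24 ± 0.02 and Ctla4, an inhibitory receptor gene, by 1.53 ± 0.03 (adjusted p = 1.32e-26 and 7.94e-22 by edgeR). Other genes of the list moved down. Sox4, a transcription factor gene that TGF-β induces in T cells, fell from 18.9 ± 0.442 to 4.62 ± 0.776 CPM (-2.03 ± 0.11; adjusted p = 1.25e-13 by edgeR). Id3 was at -1.69 ± 0.11 and Il9, which TGF-β induces together with IL4, at -1.52 ± 0.09 (adjusted p = 5.04e-12 and 7.16e-13 by edgeR). Itgae, the gene of the TGF-β-induced integrin chain CD103, had 54.3, 51.2 and 54.4 CPM in ctrl-Treg and 50.4, 50.9 and 54.0 CPM in Sora-Treg libraries, with overlapping groups (log2 fold change -0.04 ± 0.05; adjusted p = 0.456 by edgeR). With library totals alone Itgae was at -0.16 and passed (adjusted p = 0.0053). Tgfbi was chosen after its values were seen. It had 1.60, 2.03 and 0.313 CPM in ctrl-Treg libraries against 0.494, 0.345 and 0.421 CPM in Sora-Treg libraries, which is the split of the myeloid markers, and their part in its log2 fold change of -1.66 was not tested.

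**Figure D5:**
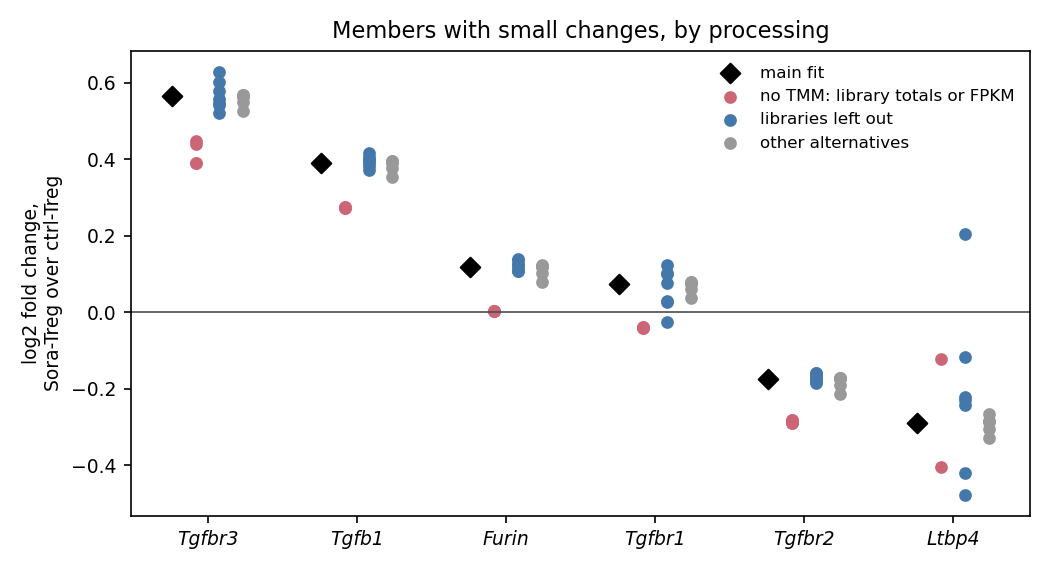
Log2 fold change of the 6 members with the smallest changes under the reported fit (black diamonds), fits with library totals alone or to FPKM (red), fits with libraries left out (blue) and other alternatives, other scalings among them (grey). Tgfbr3, Tgfb1 and Tgfbr2 stayed on 1 side of 0 throughout, Furin reached 0.0028, and Tgfbr1 and Ltbp4 crossed 0.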

How the data were processed

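RNA-seq was done on 6 libraries, 3 per group, grouped and numbered by their titles. The labels do not say whether they are separate cultures or mice, so p-values measure only the spread between these libraries. The count table deposited by the authors holds raw counts under gene symbols. The methods of the study name Bowtie2 and the build GRCm38, whereas the submitters' processing notes list fastp, HISAT2, HTSeq, R 3.2.0, DESeq2 and GRCm39. Gene coordinates are therefore not given except for RefSeq promoter windows of GRCm38.p6. Strand handling and annotation release are not given in the sources used here, and overlapping genes are uncertain. The authors also deposited FPKM values, each equal to a count over the library total and over 1 length for its gene (largest relative difference in that length 1.64e-06) and are no separate measurement.

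Counts were tested with edgeR 4.0.16 under R 4.3.3 (quasi-likelihood F-test, TMM scaling, filterByExpr, no covariate, Benjamini-Hochberg adjustment over 13463 genes). The fit was also run on simulated counts. Few genes were changed there, equally up and down and by 2-fold or more. That run therefore did not check the scaling or calls of small changes. The SE of a log2 fold change is the one its F statistic implies. CPM values are TMM-scaled, and group values are means ± SD. Shares and ratios of FPKM were compared by exact two-sided permutation tests over libraries. Alternatives used other scalings and filters, DESeq2 1.42.0, limma 3.58.1 on log2(FPKM + 1) and log2(FPKM + 0.1), a replicate block and libraries left out. Same-numbered libraries did not deviate together (correlations -0.0438, 0.0591 and 0.0299). Such correlations cannot tell whether equal numbers share a mouse or culture, and the reported fit did not pair them. Within groups, every pair of libraries differed by more than sampling noise. Floors in counts cover counting error only.

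The members and the lists were chosen with earlier results of these data known. Named genes were all 10 members, 5 partner genes (Itgav, Itgb8, Itgb1, Nrros and Itgae), the 3 genes most like Tgfb1 and Tgfb3, and of each list the 3 largest changes each way (2 for the SMAD and SMAD-independent lists) with an adjusted p under 0.05 and a mean log2 CPM of at least 1. A gene that this rule names from the response list is not reported here, in the text or in the plot of the lists, although the counts and the median of that list include it.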

Additional observations from a re-analysis of the deposited data

How the results depend on the processing

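Of 55 named genes tested, 38 kept their direction and their side of the threshold in each alternative that tested them, 36 of these in all 17 (16 planned, 1 chosen after seeing the data: leaving out control libraries 1 and 2) and 2, Ltbp2 and Bmp1, in 15. The direction of 2 genes turned. Tgfbr1 was at -0.0403 with library totals alone, -0.0380 with limma on log2(FPKM + 1), filtered or not, -0.0408 on log2(FPKM + 0.1) and -0.0248 without control libraries 1 and 2. Ltbp4 was at 0.20 without those libraries, with control library 3 as the only control. Furin lost its call with library totals and in the 3 fits to FPKM. Called directions of the other members held in these alternatives, with ranges of 0.27 to 0.42 for Tgfb1, 4.05 to 6.13 for Tgfb3, 1.70 to 3.32 for Ltbp3, 0.83 to 0.98 for Lrrc32, 0.39 to 0.63 for Tgfbr3 and -0.29 to -0.16 for Tgfbr2.

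The storage and activation list had 4 genes past the threshold with limma on log2(FPKM + 1) or log2(FPKM + 0.1) and 7 without a filter, against 13. The filtered fits kept only genes with an FPKM of at least 1 in at least 3 libraries, so Ltbp2, Bmp1 and Mmp14 were not tested in them. With no filter Ltbp2 and Bmp1 passed and Mmp14 did not. The rest of the fall was not traced. The superfamily lists had 6, against 10, without control libraries 1 and 2, a fit with fewer samples. The Tgfb3 share of ligand transcripts differed by 19.5 percentage points in CPM, which does not divide by length, against 13.7. Library totals alone moved the split of all genes from 3994 higher and 4028 lower to 2862 and 5614.

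With 1 library left out, the members past the threshold numbered 7 to 8 and those also beyond 2-fold 2 to 3, where Tgfb2 entered the test. Counts were 11 to 13 for storage and activation, 11 for co-receptors, 8 to 10 for SMADs, 8 to 10 for the superfamily and 27 to 28 for responses. The Tgfb3 share differed by 13.6 to 13.9 percentage points, and the log2 ratio of Tgfbr2 to Tgfbr1 by -0.31 to -0.19. With the replicate block, 7 members passed and Tgfb3 was at 5.84. It changed no member's call. RefSeq transcript lengths were not used because the table gives gene spans, and GENCODE transcript lengths took their place.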
